A study of Mus musculus with 3 samples.

Results

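Interleukins are secreted proteins through which leukocytes and the cells around them exchange signals, and each acts on cells that carry its receptor, usually a complex of 2 or more chains. Several receptors share a chain: the common gamma chain serves the receptors of IL-2, IL-4, IL-7, IL-9, IL-15 and IL-21, and gp130 those of IL-6, IL-11 and IL-27. In lymphnodes, IL-7 made by stromal cells keeps naive T cells alive, IL-2, IL-4 and IL-21 pass between T and B cells during a response, and members of the IL-1 family report tissue damage and infection. The genes described here are those whose symbol starts with Il and a digit, 83 of the 48568 gene symbols in the deposited tables. They comprise 38 genes for ligands and their inhibitors, 41 receptor genes, 3 genes with other roles or outside these families, and Il1bos, an RNA antisense to Il1b. Related genes with other symbols, such as Ebi3 or Csf2rb, were not counted among the 83.

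Popliteal lymphnodes, which drain the hind foot, were taken whole from untreated C57Bl/6 mice aged 5 months, and RNA was pooled within each group: that of 6 wildtype females, that of 6 wildtype males and that of 3 SryHi males, for 1 library each. The SryHi males are the XY-Sry+ males of the FCG model, in which the sex chromosomes and the gonads are inherited apart. Their Y chromosome lacks Sry, the gene that starts testis development, and Sry was returned as a transgene on an autosome, so they differ from wildtype males in the site as well as the amount of its expression. Stranded libraries depleted of ribosomal RNA were sequenced as pairs of 50 bases, and the authors deposited FPKM, fragment numbers divided by the length of the transcript and by the size of the library. Both comparisons, females with wildtype males and SryHi males with wildtype males, use the same wildtype male library. With 1 pool per group there was no replicate check, no test was run, and every difference below is one between these libraries.

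The depth is not in the files. From the steps between low FPKM values it was estimated at about 5600000 fragments for both the females and the SryHi males and 5900000 for the wildtype males, and 3 fragments on a transcript of 1 kb then correspond to 0.506 to 0.537 FPKM. Sry had 20.8 FPKM in SryHi males and was listed at 0 in both wildtype libraries, and Ddx3y, a Y-linked gene, was listed at 0 in females only. The summed FPKM of 8 B cell markers was 1156 to 1205 and that of 10 T cell markers 268 to 484. A list of 13 neutrophil markers summed to 68.0 FPKM in females, 383 FPKM in the wildtype male pool and 106 FPKM in the SryHi pool, with all 13 below the wildtype male level in both of the other libraries. In whole tissue, fewer cells of a type and less RNA per cell cannot be told apart.

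Receptor genes were widely detected in these resting nodes and ligand genes were not. Of the 41 receptor genes, 33 had at least 1 FPKM in every library, against 9 of the 38 genes for ligands and inhibitors. The median level per length of a receptor gene was 5.96 FPKM in females, 5.48 FPKM in the wildtype male pool and 8.13 FPKM in the SryHi pool, while that of a ligand or inhibitor gene was 0.142 FPKM or less in each library. Of all 83 genes, 45 reached 1 FPKM in every library, 18 were above 0 somewhere but under 1 FPKM everywhere, and 16 were listed at 0 in every library. The 16 included Il3, Il9, Il17a, Il17c, Il22, Il25 and Il31, genes of cytokines that activated lymphocytes or epithelia make, and at this depth such a value allows a few fragments. The FPKM of all 83 genes summed to 1101 in the female pool, 1115 in the wildtype male pool and 1136 in the SryHi pool, between 0.308% and 0.314% of the FPKM of protein-coding genes.

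**Figure D1:**
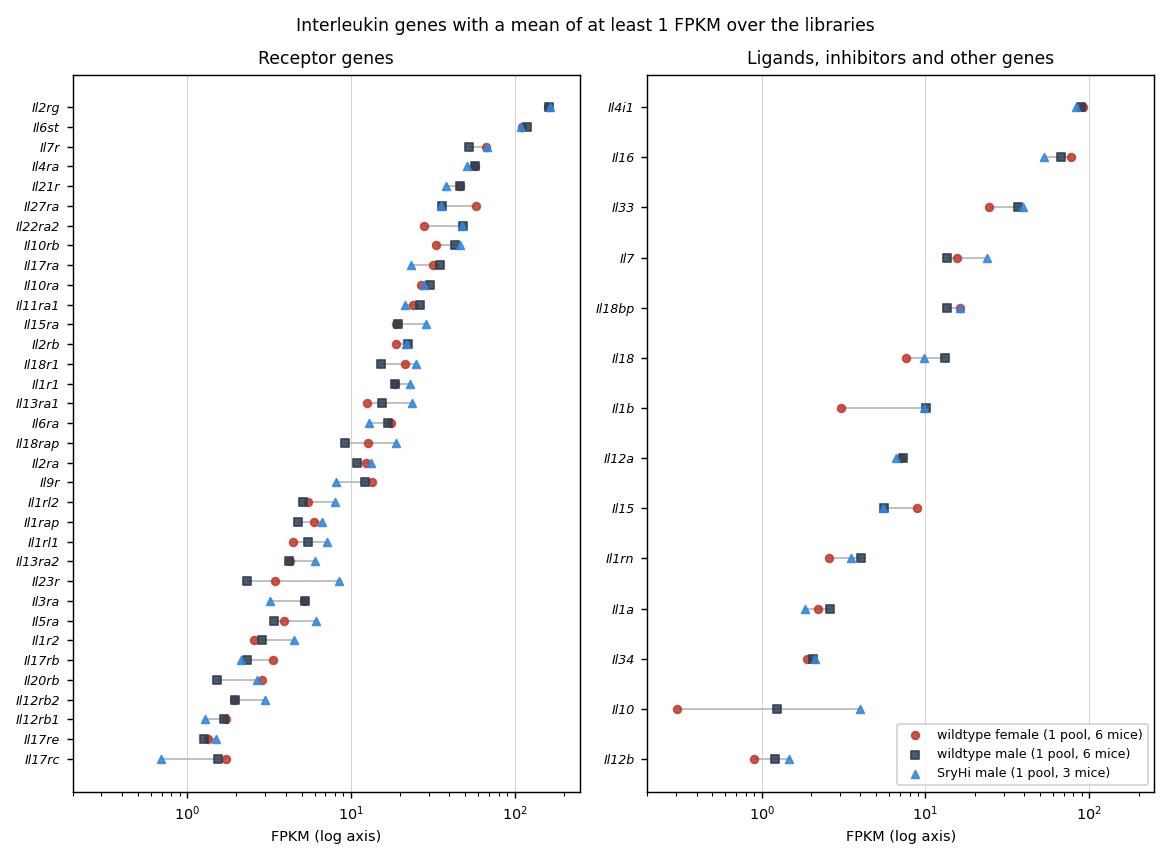
FPKM (log axis) of the 48 interleukin genes whose mean over the 3 libraries was 1 FPKM or more, receptor genes at left and the others at right, with 1 point per library (circle, wildtype female; square, wildtype male; triangle, SryHi male). Most genes have their 3 points close together, and Il1b, Il10, Il23r and Il17rc are spread the most.

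The receptor chains that several cytokines share stood at the top and differed little. Il2rg, the common gamma chain, had 159 FPKM in females, 163 FPKM in the wildtype male pool and 165 FPKM in the SryHi pool, above 98.9% of protein-coding genes in wildtype males, though it shares exons on the same strand with Gm20489. Il6st, which encodes gp130, followed with 111, 119 and 110 FPKM in the same order. These 3 libraries were nearly level for both chains.

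The next receptor genes are characteristic of lymphocytes. Il7r, the IL-7 receptor chain of naive and memory T cells, had 66.8 FPKM in females, 52.4 FPKM in the wildtype male pool and 68.0 FPKM in the SryHi pool, so the wildtype males were lowest. Il4ra, shared by the IL-4 and IL-13 receptors, had 57.6, 57.3 and 51.1 FPKM, and its neighbour on chromosome 7, Il21r, the IL-21 receptor of B and T cells, had 46.4, 46.6 and 38.1 FPKM. Both were level in the wildtype libraries and lower in SryHi males. Il2ra, the chain CD25 that gives the IL-2 receptor high affinity and marks T regulatory cells, had 12.4, 10.9 and 13.2 FPKM, and Il2rb, which binds IL-2 and IL-15, had 18.9, 22.4 and 21.9 FPKM. The list of 7 T regulatory cell markers summed to 65.3, 50.8 and 64.6 FPKM, lowest in wildtype males as Il2ra was. Its single markers did not all follow this order. In females 6 lay above the wildtype male level and 1 below, and in SryHi males 4 above and 3 below. The part of these cells in the Il2ra values was not tested. Over the 8 receptor genes of the common gamma chain family, the median log2 ratio was 0.00 in females and -0.01 in SryHi males, each over wildtype males, with 4 genes above 0 and 4 below in both comparisons.

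Among the genes that are neither a classical ligand nor a receptor, 2 were also abundant. Il4i1, an enzyme that oxidises amino acids, had 91.4 FPKM in females, 89.4 FPKM in the wildtype male pool and 83.5 FPKM in the SryHi pool, but it shares exons on the same strand with Nup62, and the assignment of fragments between them is uncertain. Il16, whose product attracts CD4+ T cells, had 77.3, 67.5 and 52.7 FPKM, and so was highest in females and lowest in SryHi males. The sum of 10 T cell markers followed the same order, at 484, 366 and 268 FPKM. In females 10 lay above the wildtype male level, though Cd3e, Cd4 and Zap70 were nearly level, at log2 ratios of 0.01, 0.02 and 0.02. In SryHi males 1 lay above and 9 below. The 1 above was Cd4, with 40.5, 39.9 and 44.9 FPKM. The part of T cells in the Il16 values was not tested. Il34, a second ligand of the macrophage growth factor receptor, had about 2 FPKM in each library (1.90, 2.06 and 2.11).

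Ligand and receptor were set side by side for 22 interleukins, taking the lowest chain of each receptor as its level. The ligand level was the lower chain for the paired chains of IL-12 and IL-23, and the higher of Il1a and Il1b for IL-1. For 5 of the 22, IL-1, IL-7, IL-15, IL-18 and IL-33, the whole receptor and the ligand reached 1 FPKM in every library. For 13 every receptor chain taken reached 1 FPKM in every library and the ligand stayed under 1 FPKM in all 3: IL-2, IL-3, IL-4, IL-5, IL-6, IL-9, IL-11, IL-13, IL-17C, IL-21, IL-23, IL-25 and IL-27. For IL-3 and IL-5 the only chains taken were Il3ra and Il5ra, without their shared partner Csf2rb. For IL-10 and IL-12 the ligand reached 1 FPKM in some libraries only. With the higher chain in place of the lower for IL-12 and IL-23, the choice made first, the counts were 6 and 12.

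**Figure D2:**
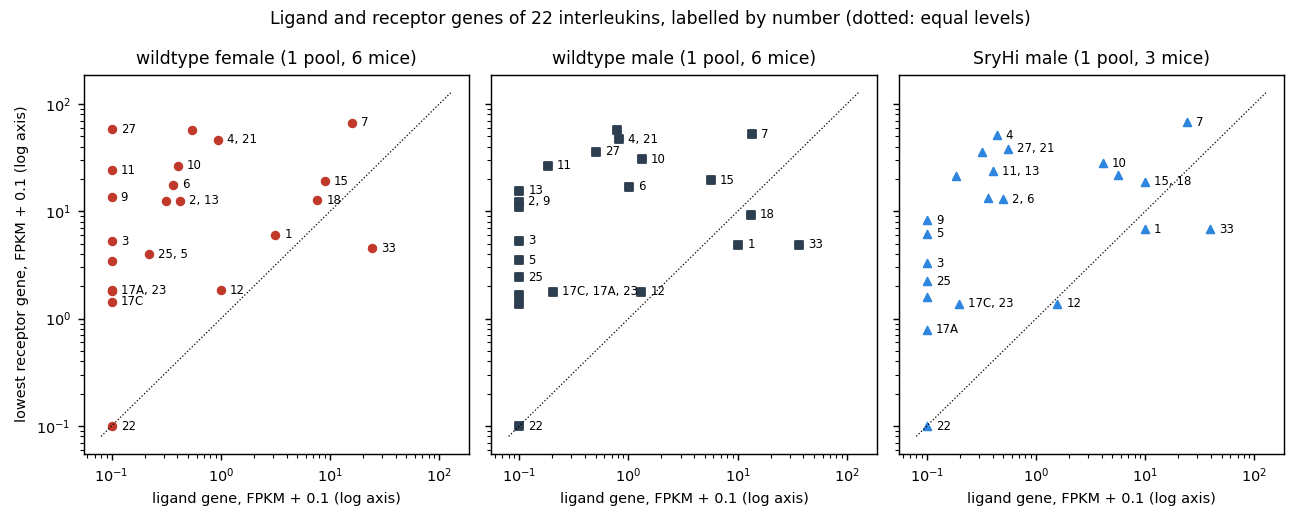
Level of the ligand gene (horizontal) and of the lowest receptor gene (vertical) for 22 interleukins in each library, as FPKM + 0.1 on log axes; numbers name the interleukin, joined by commas for adjoining points from left to right and then upwards, and the dotted line marks equal levels. Most interleukins lie above the line, with receptors above ligands, and IL-33 lies below it in every library.

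In all 3 libraries the ligand was above the lowest receptor chain only for IL-33. The same held for IL-1, by the level of Il1b, in both male libraries, for IL-18 in wildtype males and, narrowly, for IL-12 in SryHi males. Il1a lay below the lowest IL-1 receptor chain in every library. Il33, an alarmin held in the nuclei of stromal and endothelial cells, had 24.3 FPKM in females, 36.7 FPKM in the wildtype male pool and 39.4 FPKM in the SryHi pool. Its receptor chain Il1rl1, known as ST2, had 4.46, 5.48 and 7.19 FPKM, and the co-receptor Il1rap 5.96, 4.78 and 6.69 FPKM. Both male libraries were above the female library in Il33. The sums of 8 stromal markers (213, 303 and 288 FPKM) and of 6 lymphatic endothelial markers (43.1, 95.5 and 114 FPKM) were lowest in females too. Ccl21a, of the lymphatic list, was listed at 0. Most of the stromal sum was Cxcl13, with 155, 216 and 225 FPKM. Of 7 kept stromal markers, 1 lay above the wildtype male level and 6 below in females. In SryHi males 2 lay above and 5 below. The part of these cells in the Il33 values was not tested.

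The IL-22 system was arranged differently. Il22 and Il22ra1, the signalling receptor chain of epithelial cells, were listed at 0 in every library. Il22ra2, the secreted decoy that binds IL-22, was abundant, with 28.1 FPKM in females, 48.1 FPKM in the wildtype male pool and 47.9 FPKM in the SryHi pool. Both male libraries were alike and the female library was lower. Dendritic cells are known to make the decoy. Of 8 markers of these cells 4 lay above and 4 below the wildtype male level in females. Their log2 ratios ran from -0.68 to 0.45, with a median of 0.03. The part of these cells in the Il22ra2 values was not tested.

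The cytokines that mark effector T cells were close to the detection limit. Il2, the T cell growth factor, had 0.215 FPKM in females, was listed at 0 in wildtype males and had 0.261 FPKM in SryHi males. Il4, the cytokine of T helper 2 and follicular helper cells, had 0.442, 0.693 and 0.335 FPKM, and Il21 had 0.846, 0.724 and 0.456 FPKM. At these low levels, for which about 15 fragments or fewer were estimated in any library, the counting intervals of these ratios all held 1. Il6, which drives acute phase responses and plasma cell growth, had 0.268, 0.916 and 0.393 FPKM, or about 2, 6 and 3 fragments, while its receptor Il6ra had 17.6, 16.9 and 12.8 FPKM.

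The first comparison asked whether the sexes differ. Ratios were taken as log2 of (FPKM + 1) where the mean of both libraries was 1 FPKM or more, which kept 47 of the 83 genes, and a gene was called at a 2-fold difference on this scale, which understates the change of low genes. In females over wildtype males, 0 interleukin genes were called higher and 1, Il1b, was called lower. Among all 15523 genes kept, 2.83% were called higher and 2.77% lower, and among 12230 protein-coding genes 0.801% and 1.57%, so 1 of 47 is near the background. Of the 47 genes, 42 lay within 1.5-fold. Their log2 ratios had a median of 0.01 and quartiles of -0.15 and 0.19, and 24 genes lay above 0 and 23 below. The median of all genes was 0.01. When FPKM were rescaled to equal totals without immunoglobulin and T cell receptor segments, the medians of interleukin genes and of all genes both moved to -0.32, and genes with small positive ratios, such as Il7r and Il16, turned below 0. Among all genes the share of calls that were higher fell from 50.6% to 23.3%. The FPKM left without segments summed to 911216 in females and 701544 in wildtype males. Protein-coding genes of at least 300 bases summed to only 350679 and 357656 FPKM. Equal totals over these protein-coding genes shifted the ratios of females by only about 0.03 before the pseudocount, and the median of all genes was then 0.04.

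**Figure D3:**
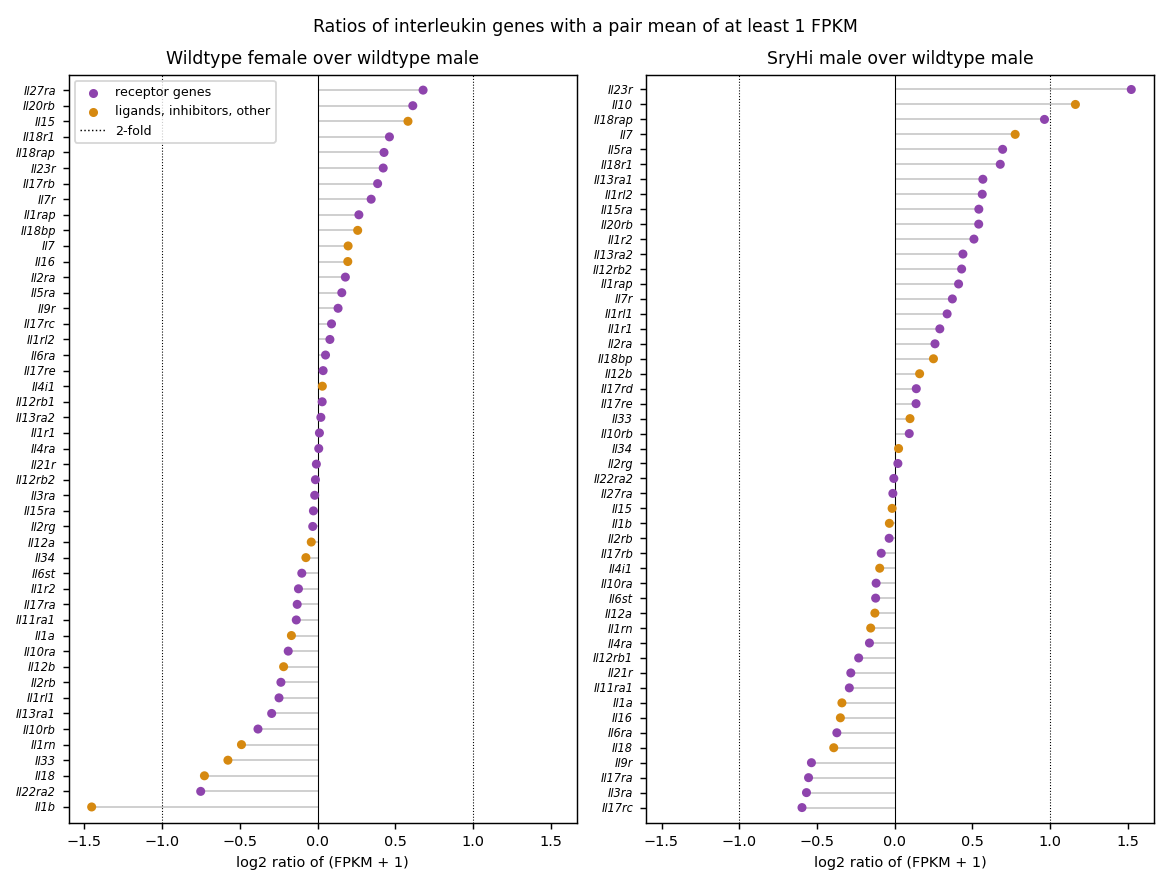
log2 ratio of (FPKM + 1) of each interleukin gene whose pair mean was 1 FPKM or more, ordered by size, for wildtype females (left, 47 genes) and SryHi males (right, 49 genes), each over the same wildtype male library; dotted lines mark 2-fold. Il1b alone passes the line at left, and Il23r and Il10 at right.

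Il1b encodes IL-1 beta, a fever-inducing cytokine made by monocytes, macrophages and neutrophils. It had 3.05 FPKM in females, 10.1 FPKM in the wildtype male pool and 9.82 FPKM in the SryHi pool, about 23, 81 and 75 fragments. The female library was low and the male libraries were alike. The log2 ratio of females to wildtype males was -1.45, and the counting interval of the fold ran from 0.18 to 0.48, with counting error alone taken into account. Il1bos, transcribed from the opposite strand, had at most 0.278 FPKM. Macrophage markers (10 genes) summed to 333, 579 and 572 FPKM and mast cell markers (9 genes) to 111, 244 and 303 FPKM, lowest in females as Il1b was. Neutrophil markers were low in SryHi males as well, where Il1b was level with wildtype males. The part of these cells in the Il1b values was not tested. The gene lies on the minus strand of chromosome 2. The 250 bases before its start (RefSeq, GRCm38.p6, minus strand, chr2:129371140-129371389) are shown because Il1b had the largest ratio of this comparison. The capitals mark TATAAA, which begins 31 bases before the start and is held, on either strand, by 12.4% of 32851 promoter windows.
Il1b: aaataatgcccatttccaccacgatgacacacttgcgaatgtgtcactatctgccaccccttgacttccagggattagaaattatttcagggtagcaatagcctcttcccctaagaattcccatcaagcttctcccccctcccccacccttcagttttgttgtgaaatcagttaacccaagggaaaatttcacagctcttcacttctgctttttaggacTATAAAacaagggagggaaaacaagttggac

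Of the other 5 IL-1 family ligands and inhibitors kept, 4 lay below the wildtype male level in females, with a median log2 ratio of -0.49 over the 5. The exception was Il18bp, the soluble inhibitor of IL-18, whose ratio of 0.26 moved to -0.09 under the rescaling without segments. Il18, made as an inactive precursor by macrophages and epithelia, had 7.57 FPKM in females, 13.2 FPKM in the wildtype male pool and 9.81 FPKM in the SryHi pool, a log2 ratio of -0.73 for females with a counting interval of the fold from 0.37 to 0.87. Il33 had a ratio of -0.58, and Il1rn, the IL-1 receptor antagonist, had 2.58, 4.02 and 3.51 FPKM and a ratio of -0.49. The wildtype males were highest in Il18 and Il1rn, and SryHi males in Il33. Il1a had 2.21, 2.60 and 1.85 FPKM. In sum the family's ligands and inhibitors had 56.2 FPKM in females against 80.7 and 80.8 FPKM in wildtype and SryHi males.

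The receptors of the IL-1 family lay on both sides of the wildtype male level. The signalling receptor Il1r1 had 18.7 FPKM in females, 18.5 FPKM in the wildtype male pool and 22.8 FPKM in the SryHi pool, and the decoy Il1r2 had 2.56, 2.87 and 4.52 FPKM. Of 7 receptor genes kept, 5 lay above 0 and 2 below in females over wildtype males, with a median of 0.08, and under the rescaling without segments 2 lay above and 5 below. SryHi males had the highest value in both.

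Il22ra2 had a log2 ratio of -0.75 in females over wildtype males, with a counting interval of the fold from 0.52 to 0.66. Il27ra, the receptor chain through which IL-27 restrains and directs T cells, had 58.1 FPKM in females, 35.9 FPKM in the wildtype male pool and 35.6 FPKM in the SryHi pool. Females were highest and the male libraries alike. Its log2 ratio of 0.68, with a counting interval of the fold from 1.45 to 1.80, was the largest upward one of the comparison, though Il27ra overlaps the antisense gene Palm3, and the strand setting of the counting is not given in the sources used here. Il20rb, a receptor chain of IL-20 and IL-24, followed at 0.61, with 2.86, 1.52 and 2.67 FPKM. Its partner Il20ra was listed at 0 in both male libraries, with 0.0713 FPKM in females.

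IL-15, which sustains memory CD8+ T cells and NK cells, and IL-7 differed in where they were high. Il15 had 8.88 FPKM in females, 5.60 FPKM in the wildtype male pool and 5.53 FPKM in the SryHi pool, a log2 ratio of 0.58 for females. Il7 had 15.7, 13.5 and 23.9 FPKM, so that it was SryHi males that stood above both wildtype libraries. The ratio of Il7 in SryHi males was 0.77, with a counting interval of the fold from 1.55 to 2.01. Il15ra, which presents IL-15 to neighbouring cells, had 19.0, 19.4 and 28.6 FPKM.

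The second comparison, of SryHi with wildtype males, bears on the Sry transgene. It kept 49 genes: 2, Il23r and Il10, were called higher and 0 lower. Among all 15566 genes kept, 3.70% were called higher and 4.14% lower, and among 12313 protein-coding genes 1.96% and 1.97%. The count of 2 of 49 is near this background. Their log2 ratios had a median of 0.02 and quartiles of -0.15 and 0.43, against a median of 0.04 for all genes, and 26 genes lay above 0 and 23 below. Past 1.5-fold lay 14.3% of the interleukin genes and 17.6% of protein-coding genes. Adipocyte markers summed to 155 FPKM in SryHi males against 63.6 FPKM in the female pool and 60.2 FPKM in the wildtype male pool, with 5 of 5 kept markers called higher than in wildtype males, and their part in the ratios of this library was not tested.

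Il23r, the receptor chain that makes T helper 17 cells, gamma delta T cells and innate lymphoid cells respond to IL-23, had 3.44 FPKM in females, 2.31 FPKM in the wildtype male pool and 8.51 FPKM in the SryHi pool, about 48, 34 and 119 fragments. SryHi males stood above both wildtype libraries. The log2 ratio was 1.52 in SryHi males over wildtype males, with a counting interval of the fold from 2.51 to 5.59. Il12rb2, the next gene on chromosome 6, had 1.94, 1.97 and 3.00 FPKM, and Il12rb1, the chain with which Il23r pairs, 1.73, 1.68 and 1.28 FPKM. The 8 markers of NK and innate lymphoid cells summed to 27.6, 24.6 and 33.3 FPKM, and the part of these cells in the ratio was not tested. The 250 bases before the start of Il23r (RefSeq, GRCm38.p6, minus strand, chr6:67491856-67492105) are shown because it had the largest ratio of all members. They hold neither TATAAA nor TTCNNNGAA, the letters of a STAT site, which 7.02% of promoter windows hold; both were searched on both strands.
Il23r: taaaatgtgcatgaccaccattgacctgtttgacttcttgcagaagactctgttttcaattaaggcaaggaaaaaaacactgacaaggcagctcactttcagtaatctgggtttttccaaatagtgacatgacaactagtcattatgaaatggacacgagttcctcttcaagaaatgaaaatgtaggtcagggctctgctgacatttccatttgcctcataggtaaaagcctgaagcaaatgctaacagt

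Il10, the cytokine that dampens macrophage and dendritic cell activity, had 0.304 FPKM in females, 1.23 FPKM in the wildtype male pool and 4.0 FPKM in the SryHi pool. These values rest on about 2, 10 and 29 fragments. The libraries stood apart in the order female, wildtype male, SryHi male, with a log2 ratio of 1.16 in SryHi males and a counting interval of the fold from 1.45 to 7.06. In females the pair fell under the filter, at a mean of 0.77 FPKM, and the counting interval of the fold ran from 0.02 to 0.996. The receptor chains Il10ra, with 26.6, 30.5 and 28.0 FPKM, and Il10rb, with 32.9, 43.3 and 46.2 FPKM, differed less than the ligand. Il10rb had the same order of libraries as Il10, and Il10ra was highest in wildtype males. The 2 male libraries were not resolved in either chain. In SryHi males over wildtype males the counting intervals of the fold held 1, at 0.94 to 1.22 for Il10rb and 0.82 to 1.03 for Il10ra. Il10rb shares exons with Gm21970.

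Receptor genes of the IL-1 family were all above the wildtype male level in SryHi males, 7 of the 7 kept, with a median log2 ratio of 0.51. Of all genes kept, 53.4% lay above 0. The 7 stayed above 0 under centring and under both rescalings of the totals that were run. These settings could not have changed the signs, because they shift this comparison by only about 0.04 to 0.06 and the lowest ratio was 0.29. Il18rap, the signalling partner chain of the IL-18 receptor, had 12.7 FPKM in females, 9.16 FPKM in the wildtype male pool and 18.8 FPKM in the SryHi pool. Its ratio of 0.96, with a counting interval of the fold from 1.77 to 2.39, lay just under the 2-fold line on the log2 scale. Il18r1, the chain that binds IL-18, had 21.4, 15.3 and 25.1 FPKM and a ratio of 0.68. Both chains were lowest in wildtype males and highest in SryHi males. The 250 bases before the start of Il18rap (RefSeq, GRCm38.p6, plus strand, chr1:40515112-40515361) are shown as those of the member with the largest ratio in this family, and hold neither motif.
Il18rap: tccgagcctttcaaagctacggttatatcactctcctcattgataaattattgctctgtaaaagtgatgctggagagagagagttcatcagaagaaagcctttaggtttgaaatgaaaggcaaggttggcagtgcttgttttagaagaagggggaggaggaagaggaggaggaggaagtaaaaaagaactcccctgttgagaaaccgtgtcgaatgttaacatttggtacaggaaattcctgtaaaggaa

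Of these receptor genes, 6 form a cluster of 477.6 kb on chromosome 1 (GRCm38, chr1:40074079-40551705), in the order Il1r2, Il1r1, Il1rl2, Il1rl1, Il18r1 and Il18rap. The cluster was picked out after its values were seen, so its ratios are a description. In SryHi males over wildtype males all 6 lay above 0, between 0.29 and 0.96, with a median of 0.54. The other 6 kept genes within 1000 kb had a median of 0.12, and 4 of them lay above 0. In females over wildtype males the cluster was mixed, from -0.25 for Il1rl1 to 0.46 for Il18r1.

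**Figure D4:**
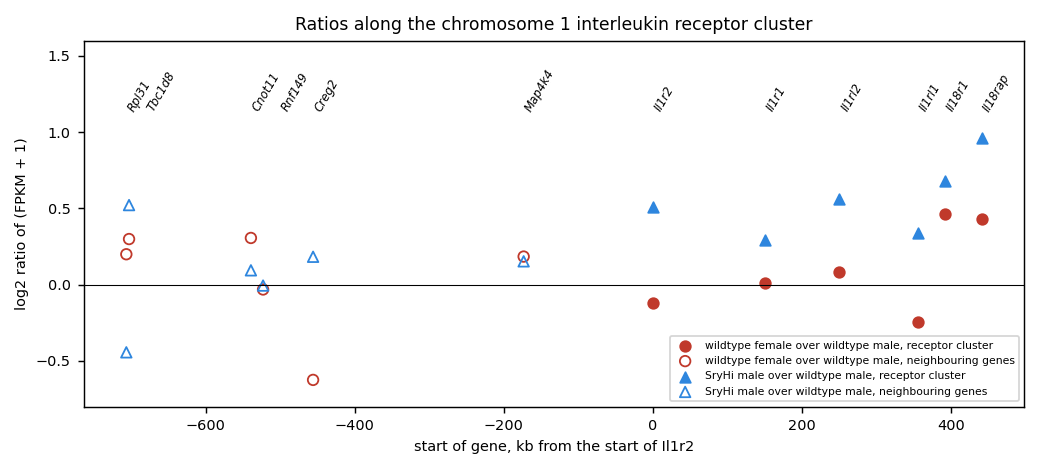
log2 ratio of (FPKM + 1) over wildtype males against the start of each gene, in kb from the start of Il1r2, for the receptor cluster on chromosome 1 (filled) and kept neighbouring genes (open), in females (circles) and SryHi males (triangles). All 6 filled triangles lie above 0, between 0.29 and 0.96, and the filled circles lie on both sides of 0.

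The receptors of the IL-3, IL-5 and IL-13 group also lay mostly above the wildtype male level in SryHi males, 3 of 4, with a median of 0.50. Il5ra, the receptor chain of eosinophils and B-1 cells, had 3.90 FPKM in females, 3.40 FPKM in the wildtype male pool and 6.11 FPKM in the SryHi pool, a ratio of 0.69. Il3ra went the other way, with 5.16, 5.23 and 3.21 FPKM and a ratio of -0.57, with a counting interval of the fold from 0.41 to 0.92. The IL-13 receptor chain Il13ra1 had 12.5, 15.5 and 23.5 FPKM and its decoy relative Il13ra2 4.25, 4.17 and 6.01 FPKM. SryHi males were highest in all but Il3ra.

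The receptor genes of the IL-17 family were mixed in SryHi males over wildtype males. Of 5 kept, 2 lay above 0 and 3 below, with a median log2 ratio of -0.09. Il17rd and Il17re were the higher ones, each at 0.14, and Il17rb was nearly level at -0.09. Il17ra and Il17rc were lower, as was Il9r of the IL-9 receptor. Il17ra, the shared chain of the IL-17 receptors, had 31.7 FPKM in females, 34.8 FPKM in the wildtype male pool and 23.4 FPKM in the SryHi pool, a ratio of -0.55 with a counting interval of the fold from 0.62 to 0.73. Il17rc, with which it pairs for IL-17A, had 1.72, 1.55 and 0.689 FPKM and the lowest ratio of the comparison, -0.60, but with about 21 and 9 fragments in wildtype and SryHi males its counting interval, from 0.18 to 1.03, held 1. Il9r, the chain that binds IL-9, had 13.5, 12.2 and 8.13 FPKM. In Il17ra, Il17rc and Il9r SryHi males were the lowest library. A rescaling to equal totals over all entries, which was not used, would add 1.67 to the log2 ratios of this comparison before the pseudocount and so turn these above 0.

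On the X chromosome lie 5 of the genes. Il2rg, Il13ra1 and Il13ra2 passed the filter, Il1rapl1, a neuronal relative of the IL-1 receptor, had 0.244, 0.225 and 0.596 FPKM, and Il1rapl2 was listed at 0. In females over wildtype males the ratios of the 3 kept were -0.03 for Il2rg, -0.30 for Il13ra1 and 0.02 for Il13ra2, so none was called. In SryHi males over wildtype males the 3 lay above 0, with a median of 0.44, although the ratio of Il2rg was only 0.02.

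The genes that act around and behind these receptors were read from lists. Of 12 kept partner genes with other symbols, 0 were called in either comparison, and 3 lay above 0 and 9 below in each. This is near the background of protein-coding genes. In females 0.801% of those were called higher and 1.57% lower, and in SryHi males 1.96% and 1.97%. The most abundant by the mean over the 3 libraries were Lifr, the LIF receptor chain that pairs with gp130, with 28.0 FPKM in females, 45.2 FPKM in the wildtype male pool and 58.3 FPKM in the SryHi pool, and Osmr, the oncostatin M receptor chain, with 29.3, 30.6 and 50.2 FPKM. Csf2ra, the chain that binds GM-CSF, had 17.2, 18.5 and 37.1 FPKM and the largest ratio of the list, 0.97 in SryHi males. SryHi males were highest in these 3 genes. Cntfr, which binds CNTF, had 3.09, 4.92 and 2.36 FPKM.

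Among 19 JAK, STAT and SOCS genes, which carry and limit the signal of most interleukin receptors, 0 were called in females. This is near the shares of protein-coding genes called there, 0.801% higher and 1.57% lower. In SryHi males 2 of the 19 were called, both lower, where 1.97% of protein-coding genes were called lower. Socs1, an inhibitor of JAK kinases induced by cytokines, had 13.2 FPKM in females, 15.0 FPKM in the wildtype male pool and 3.78 FPKM in the SryHi pool, a log2 ratio of -1.74 in SryHi males. Socs3, which limits signals through gp130, had 10.8, 17.3 and 6.04 FPKM and a ratio of -1.38. SryHi males were lowest in both inhibitors. Jak1, a kinase bound to many of these receptors and abundant in each library, had 138 FPKM there against 152 FPKM in wildtype males. Of the 19 genes, 6 lay above 0 and 13 below in SryHi males over wildtype males. Among the higher were Jak2, with 37.1, 31.4 and 56.8 FPKM, and Socs2, with 17.0, 20.3 and 32.6 FPKM. Among 14 genes of IL-1 signalling and processing, 1 was called higher in SryHi males, against 1.96% of protein-coding genes. It was Tab2, an adaptor of the TAK1 kinase, with 52.0, 51.2 and 109.5 FPKM and a ratio of 1.08 in SryHi males. Its relative Tab3 had 7.89, 6.64 and 11.5 FPKM, and Irak1, a kinase of the pathway, 55.9, 51.2 and 46.5 FPKM. SryHi males were highest in both adaptors and lowest in Irak1. Casp1, the protease that releases IL-1 beta and IL-18, had 19.3, 16.8 and 26.9 FPKM.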

How the data were processed

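RNA of whole popliteal lymphnodes was sequenced as 1 pooled library per group, 3 groups in all. Reads were mapped with HiSat2 to the mouse genome, given as mm10 in the labels, and quantified with Samtools, Cufflinks and Cuffdiff; versions, annotation and strand setting are not given in the sources used here. The authors deposited 2 Cuffdiff tables of FPKM, which the authors scaled by transcript length and mapped fragments, each with 48808 entries. They also hold the authors' log2 fold change, test statistic, p-value, q-value and call, none of which was used. Each has 2 lines without values. The wildtype male FPKM differ between the tables in 2 entries only, so the 3 libraries were treated as being on 1 scale.

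Symbols starting with Il and a digit were taken, with entries of one symbol summed (85 entries for 83 genes). Genes with a pair mean of at least 1 FPKM were kept, and log2 of (FPKM + 1) was compared, with calls at 2-fold. The value of 1 fragment was estimated from FPKM times length of genes with 1 transcript of 1500 to 6000 nt, from 342 to 377 genes per library. Fragment numbers are therefore approximate, and the 95% intervals of folds (exact Clopper-Pearson) cover counting error only. Samples are separate pools with 1 value each, so no p-value was computed. Positions and transcript lengths come from GENCODE M21 (GRCm38), and promoter windows from RefSeq, which has one for 66 of the 83 genes and none for Il10. Python 3.11.15, pandas 2.3.3, numpy 2.4.6 and SciPy 1.17.1 were used, and calling was tested on simulated data.

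The members and lists were chosen with earlier results of these data known. Named in full were genes called in either comparison, the 12 with the highest mean FPKM, X-linked genes and the chains of IL-1, IL-2, IL-6, IL-7, IL-10, IL-15, IL-18 and IL-33, and of the lists of partner and signalling genes the 2 largest ratios and 2 highest levels; lists of cell type markers are given as sums. Of the genes under this rule, 1 is not reported here. Further interleukin genes, the chromosome 1 cluster and the treatment of paired ligand chains were chosen after their values were seen. So were Casp1, Jak2, Socs2 and Cxcl13 of the lists. Alternatives were another pseudocount, other filters, centring, rescaled totals and the highest entry of a symbol.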

Additional observations from a re-analysis of the deposited data

How the results depend on the processing

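The counts of called genes and the medians were recomputed under each alternative. With a pseudocount of 0.1 FPKM, 1 gene (Il17rc) was called lower in SryHi males over wildtype males where none was before, and 3 genes, Il18rap added, were called higher. At a pair mean of at least 5 FPKM, 1 gene (Il23r) was called higher there, since Il10 lies under that filter. With equal totals without immunoglobulin and T cell receptor segments, 3 genes (Il18, Il1b and Il22ra2) were called lower in females over wildtype males and the median moved to -0.32, as did the median of all genes. The other settings, among them equal totals over protein-coding genes, an alternative chosen after seeing the data, changed no count by over 1.5 times and no median by over 0.1. Of 170 ratios of named genes under the alternatives, 156 stayed inside the counting interval of the deposited values and 14 left it, by moves of up to 0.37, each of them with the segments left out of the totals. The largest move, 0.95, was that of Il10 in females with the smaller pseudocount, to -1.72, inside its wide interval. Equal totals over all entries were not run, because joining segments dominate that sum; they would shift log2 ratios by -0.26 in females and 1.67 in SryHi males. No paired analysis was possible because each group is 1 library, and no replicate could be left out. Depth limits low and short genes most, such as Il2, Il4 and Il6, whose counting intervals held 1 in both comparisons.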
